A study of Homo sapiens with 2 samples.

Results

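Short HNRNPK peaks that lie within 1000 bp of another peak were described in the peak list of H1299 cells. Members were selected on measured values of the peak list itself, namely the called position and length of each peak. A member was a peak on chromosomes 1 to 22 or X shorter than 500 bp, with another peak of any length on the same chromosome at a gap of at most 1000 bp. The short arm of chromosome 21 below 9000000 was left out. Of 20700 short peaks on these chromosomes 1634 qualified (7.89%, Wilson 95% CI 7.53 to 8.27), out of 22351 peaks in the whole list. They formed 878 clusters. H1299 is an established human non-small cell lung cancer line, and the cells were untreated. Chromatin was pulled down with an antibody to HNRNPK in 1 library (IP) and compared with 1 library of sheared DNA without the pull-down (input). ChIP-seq of this kind reads the DNA fragments that a protein holds after crosslinking. With 1 library of each kind there was no replicate error, so every difference between groups of peaks is a description without a test.

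HNRNPK is a nuclear RNA- and DNA-binding protein whose KH domains prefer cytosine-rich single strands. It takes part in transcription, splicing, and the processing and stability of mRNA, and crosslinked chromatin can hold it through DNA, through nascent RNA or through partner proteins. A peak is a stretch of genome where IP fragments pile up above a local background, and a broad or uneven pile-up can be split by the caller into neighbouring peaks. The list does not tell separate binding sites from pieces of 1 site.

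Promoters that a clustered short peak overlapped are shown first, because the C-rich heptamer CCCTCCC was more frequent in them than in promoters as a whole. It was present in 35 of their 65 windows (53.8%, 41.9 to 65.4) and in 26.6% of all windows. Windows with another short peak had it in 41.2% (36.7 to 45.7). The intervals of both kinds of short peak overlapped, so the frequency was not particular to clustered ones. Each line runs 5′ to 3′ along the gene's strand, from 250 bases before to 50 bases after an annotated start (RefSeq, GRCh38.p14). Capitals mark CCCTCCC or its reverse complement. The windows were chosen after their values were seen. They are CD63 (chr12:55727790-55728089, minus strand), E2F3 (chr6:20403364-20403663, plus), AXL (chr19:41218973-41219272, plus), GIPR (chr19:45667971-45668270, plus), EGLN2 (chr19:40799272-40799571, plus) and, as a window without the heptamer, H2BC17 (chr6:27893175-27893474, plus).
CD63: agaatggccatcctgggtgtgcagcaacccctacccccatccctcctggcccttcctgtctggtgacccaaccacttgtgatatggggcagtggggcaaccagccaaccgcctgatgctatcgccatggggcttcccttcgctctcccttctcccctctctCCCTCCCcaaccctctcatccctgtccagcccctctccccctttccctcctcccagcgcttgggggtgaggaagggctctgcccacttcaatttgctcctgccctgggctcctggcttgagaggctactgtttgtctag
E2F3: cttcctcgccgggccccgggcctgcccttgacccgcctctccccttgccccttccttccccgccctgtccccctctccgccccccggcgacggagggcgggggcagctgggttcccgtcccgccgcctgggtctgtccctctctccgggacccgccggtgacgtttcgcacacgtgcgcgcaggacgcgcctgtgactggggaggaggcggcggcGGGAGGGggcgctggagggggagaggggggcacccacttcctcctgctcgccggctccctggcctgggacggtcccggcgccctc
AXL: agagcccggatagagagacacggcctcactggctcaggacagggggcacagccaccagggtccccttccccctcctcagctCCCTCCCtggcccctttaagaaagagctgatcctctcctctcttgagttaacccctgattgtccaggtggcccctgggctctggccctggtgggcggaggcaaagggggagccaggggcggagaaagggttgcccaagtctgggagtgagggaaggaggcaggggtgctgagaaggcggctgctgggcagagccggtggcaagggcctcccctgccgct
GIPR: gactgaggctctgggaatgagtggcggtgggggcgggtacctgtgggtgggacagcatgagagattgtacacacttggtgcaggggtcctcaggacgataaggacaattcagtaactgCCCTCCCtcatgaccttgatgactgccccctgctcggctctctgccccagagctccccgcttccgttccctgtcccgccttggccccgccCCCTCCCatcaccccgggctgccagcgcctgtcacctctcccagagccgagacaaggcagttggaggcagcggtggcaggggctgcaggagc
EGLN2: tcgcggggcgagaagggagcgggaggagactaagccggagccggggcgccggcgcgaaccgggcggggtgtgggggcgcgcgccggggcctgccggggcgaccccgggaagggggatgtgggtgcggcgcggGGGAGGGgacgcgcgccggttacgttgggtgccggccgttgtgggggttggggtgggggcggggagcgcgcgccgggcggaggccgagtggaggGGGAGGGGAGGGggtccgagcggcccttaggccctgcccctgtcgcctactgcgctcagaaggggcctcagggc
H2BC17: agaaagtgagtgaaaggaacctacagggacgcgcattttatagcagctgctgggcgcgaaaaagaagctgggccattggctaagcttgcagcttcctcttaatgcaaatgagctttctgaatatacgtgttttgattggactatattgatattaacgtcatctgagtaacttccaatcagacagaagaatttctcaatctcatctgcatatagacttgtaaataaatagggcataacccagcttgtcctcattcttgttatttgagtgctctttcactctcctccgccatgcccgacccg

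The windows of CD63, a tetraspanin of late endosomes and exosomes, and of E2F3, a cell-cycle transcription factor, lay under a member over all 300 bases. The member at the CD63 window had a fold enrichment of 4.71 and that at the E2F3 window 4.19. At AXL, which encodes a receptor tyrosine kinase, 278 bases were covered by a member with a fold enrichment of 4.14. Coverage was 233 bases at GIPR, the receptor of an incretin hormone, and 173 bases at EGLN2, a prolyl hydroxylase of the oxygen-sensing pathway. The members there were weaker, with fold enrichments of 2.82 (FDR 0.363) and 2.75 (FDR 0.339). At the histone gene H2BC17 the member covered 69 bases around the start, with a fold enrichment of 4.48.

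Most clusters were pairs. Of the 878 clusters 795 held 2 peaks (90.5%), 67 held 3, 12 held 4 and 4 held 5. Clusters of 3 or more peaks made up 9.45% (Wilson 95% CI 7.69 to 11.6). Together the clusters held 1859 peaks, which were the 1634 members and 225 longer neighbours of 500 bp or more. Short peaks alone made up 672 clusters, and 206 included a longer peak. From first to last base the shortest cluster covered 585 bp, the median cluster 1208 bp and the longest 4956 bp. A neighbour on both sides was found for 75 members.

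No peaks overlapped, and the smallest gap in a cluster was 120 bp. The 981 gaps in clusters had a median of 478 bp. Over all neighbouring peaks on these chromosomes, whatever their length, 144 gaps lay between 101 and 200 bp and 86 between 901 and 1000 bp. Counts went on falling beyond the limit of the rule, from 995 gaps in the first kb to 769 in the second, 663 in the third and 331 in the tenth. The 1000 bp limit therefore fell within a gradual decline. On either side of it values were close. The 72 short peaks whose nearest neighbour lay 951 to 1000 bp away had a median fold enrichment of 3.34 and a median pileup of 8.76, against 3.51 and 8.76 for the 68 at 1001 to 1050 bp. At the length limit, 40 members of 480 to 499 bp had a median fold enrichment of 3.59, and 27 peaks of 500 to 519 bp with a neighbour had 3.73.

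The peak values of members were compared with those of the 19066 other short peaks on the same chromosomes. The fold enrichment, taken as the IP pileup plus 1 over the local background plus 1, had a median of 3.51 in members (95% CI of the median 3.46 to 3.57) and 3.58 in other short peaks (3.57 to 3.58). Members therefore were not more enriched by this ratio. The medians of the pileup and of the background under it were higher. The pileup, the height of the IP coverage in scaled fragments, had a median of 8.76 against 7.79, or 9 and 8 fragments. This is a difference of 1 fragment, and the interval of the members' median (7.79 to 8.76) includes the other median. The local background had a median of 1.54 (1.47 to 1.63) against 1.24 (1.23 to 1.26). Outside chromosome 19 these medians were closer, at 1.37 in members and 1.23 in other short peaks. A background of 2.5 or more was found under 360 members (Wilson 95% CI 20.1 to 24.1% of them) and 1655 other short peaks (8.29 to 9.09%), and the lowest background level of the list under 16.2% and 24.6%. Long peaks had still higher medians, with a pileup of 9.73 and a background of 1.70. By chromosome, the median background was higher in members than in other short peaks on 15 chromosomes, lower on 6 and equal on 2. Members were also less often at the minimum peak length of 233 bp (26.3% against 35.0%), and their median length was 282 bp against 263 bp.

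An FDR under 0.05 was given to 15.5% of all 22351 peaks. Among members it was given to 298 (18.2%, Wilson 95% CI 16.4 to 20.2), among other short peaks to 13.4% (12.9 to 13.9) and among the 1350 long peaks to 34.8%. Since the rule used the same contrast, nothing is read from this share. At least 1 peak with an FDR under 0.05 was present in 334 clusters (38.0%), whereas all peaks passed in 44 clusters. Both counts depend on the share of single peaks that passed, so nothing is read from them either. Between the higher and the lower pileup of a pair the median ratio was 1.17 over 795 pairs, and it was 2 or more in 17. Pileups take few values, and unpaired peaks were not compared, so resemblance within pairs was not tested. Across pairs Spearman's rank correlation was 0.62 for the pileups, 0.82 for the backgrounds and 0.18 for the fold enrichments. Neighbours share their stretch of genome and both libraries, so these values describe the list only.

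The share of short peaks that were clustered rose with the local background. It was 5.34% of 4960 short peaks at the lowest background, 8.40% at a background of 1.5 to 2.5, 17.3% at 2.5 to 5 and 22.8% of 206 at 5 or more. It also rose with height, from 5.49% of peaks of 5 to 6 fragments to 21.7% of those of 16 or more. The part of the background or the depth in the clustering was not tested.

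By chromosome, chromosome 19 stood apart. It carried 368 of the 1634 members (22.5%) in 209 clusters, and 19.2% of its 1918 short peaks were clustered (Wilson 95% CI 17.5 to 21.01). On chromosome 7 it was 148 of 1479 (10.01%, 8.58 to 11.6). The share was 9.90% on chromosome 17 and 8.93% on chromosome 16, and it was lowest on chromosomes 15 (3.89%) and 10 (3.93%). The median background of short peaks was 2.56 on chromosome 19 and at most 1.63 on the other chromosomes. Without chromosome 19 the share over the genome was 6.74%.

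Part of the members lay in dense stretches, and most were spread more widely. Of 2456 windows of 1 Mb with a short peak 454 held a member, and 24 windows with 10 or more members held 394 of them (24.1%). These windows were picked for their number of members. The longest run of such windows was on the long arm of chromosome 19, between 38 and 46 Mb, with 168 members in 98 clusters. Of the 608 short peaks in this run 27.6% were clustered. Its median background was 3.06 under members and 3.12 under other short peaks, and its median fold enrichment was 3.17 and 3.04, so both kinds of peak sat on a raised background there. Another run lay at 34 to 36 Mb of chromosome 19, with 43 members and a background of 3.26 under members. Away from chromosome 19, the windows at 6 to 7 Mb and 47 to 48 Mb of chromosome 12 held 17 and 15 members, and the window at 32 to 33 Mb of chromosome 20 held 16. At 49 to 50 Mb of chromosome 4, with no protein-coding gene within 1000 bp of a member, 14 of 28 short peaks were clustered at a median background of 3.65. Not every dense window was of this kind. At 13 to 14 Mb of chromosome 19, 11 members had a median background of 1.10 and a median fold enrichment of 4.19.

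Members lay at gene ends more often than other short peaks. A midpoint from 1000 bp outside to 100 bp inside either end of an annotated gene was found for 197 members (12.1%, Wilson 95% CI 10.6 to 13.7), for 8.40% of other short peaks (8.01 to 8.80), for 12.1% of long peaks and for 8.92% of all peaks on these chromosomes. Elsewhere inside genes were 60.5% of members and 59.4% of other short peaks, and outside genes 27.4% and 32.2%. Intervals cover counting error only, and neighbours in a cluster are not independent. The difference was not the same at every background, and the classes were set after values were seen. Below a background of 2.5 the intervals overlapped in each class. They were 7.73 to 15.3% for members and 6.96 to 8.49% for other short peaks at the lowest level, 7.05 to 12.0% and 7.29 to 8.51% from there to 1.5, and 7.66 to 13.1% and 8.47 to 10.04% at 1.5 to 2.5. Only at a higher background were they apart. The shares were 17.9% (14.0 to 22.5) and 10.4% (8.92 to 12.01) at 2.5 to 5, and 31.9% of 47 members (20.4 to 46.2) and 8.18% of 159 other short peaks (4.84 to 13.5) at 5 or more. Outside chromosome 19 the shares were 11.1% and 8.17%. The share itself depends on how a gene end is set. With protein-coding genes only it was 6.24% in members (5.17 to 7.52) and 4.19% in other short peaks (3.91 to 4.48), and with 3000 bp to either side of an end 38.4% and 28.8%. With only peaks of FDR under 0.05 kept, neighbours included, 22 of 89 members (16.9 to 34.6%) and 9.53% of other short peaks lay at gene ends. In this setting a short peak whose neighbours did not pass counts among the other short peaks. Members had the higher share under each of these settings.

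Both ends of genes contributed. Only genes whose strand was known were used here, so the shares do not add up to that of all gene ends. Of the 1588 members outside chromosome 8, 3.53% lay at the start of such a gene (2.73 to 4.55). At the far end of such a gene lay 3.97% (3.11 to 5.04). For other short peaks the shares were 2.79% (2.56 to 3.04) and 2.34% (2.13 to 2.57), so the interval of members lay apart from that of other short peaks at the far end and overlapped it at the start. Long peaks had 4.56% at starts (3.56 to 5.82) and 4.18% at far ends (3.22 to 5.40), so neither placement was particular to clustered short peaks. Chromosome 8, with 46 members, was not used here for starts. Closer to a start, 2.96% of members and 1.35% of other short peaks had their midpoint within 250 bp of the start of a protein-coding gene. Among long peaks it was 2.13% (1.47 to 3.06), whose interval overlaps that of members (2.23 to 3.91), and among all peaks 1.52%. The span of 46 of the 854 clusters outside chromosome 8 (5.39%) held such a start. In 35 of them a start lay under a peak, and in 11 every start lay in a gap between peaks.

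The largest clusters were made of 5 peaks. On chromosome 12, 5 peaks ran along GAPDH, the glycolytic enzyme gene transcribed at a high level in most cells, over chr12:6534407-6538479. A long peak with a fold enrichment of 3.81 covered the first base of the gene's annotated span. The start in the promoter table lies further in, in the gap after this peak, so this cluster is among the 11 without a start under a peak. Members followed at 1674 to 1925 bp, 3011 to 3262 bp and 3693 to 3962 bp from the first base of the span, the last across the far end of the 3855 bp gene, with fold enrichments of 2.73, 3.15 and 3.81. None of the 3 had an FDR under 0.05, whereas the long peak between them, at 4.65-fold, had an FDR of 0.00214. A second cluster of 5 on the same chromosome (chr12:6941015-6944261) joined ATN1, a transcriptional corepressor gene, with RNU7-1, the small nuclear RNA that guides processing of histone mRNA ends, and C12orf57. Its 4 members had fold enrichments of 2.15 to 4.06, and the background reached 4.00.

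At chr16:83964683-83969638, 5 peaks covered 4956 bp of OSGIN1, a stress-response gene, and NECAB2. The 3 members had fold enrichments of 3.88 to 4.69 over backgrounds of 1.51 to 2.33. The remaining cluster of 5, at chr7:56370563-56374725, was of another kind. It lay on 4 annotated loci, none protein-coding, with a predicted protein-coding gene 955 bp away. Its 4 members had pileups of 55.5 to 142.1 over backgrounds up to 52.0. Their fold enrichments were only 2.23 to 3.15, although the FDR was as low as 2.49e-19. These were the 4 highest pileups among all members.

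Among clusters of 4, that at the divergent histone genes H2AC17 and H2BC17 (chr6:27891929-27895733) opened with a long peak of 8.18-fold at the far side of H2AC17. The members after it had fold enrichments of 4.48 at the start of H2BC17, 3.22 beyond its far end and 2.54 further on. In the same order their pileups were 12.66, 9.73 and 11.68, over backgrounds of 2.05, 2.33 and 4.00. Their FDRs were 0.00619, 0.290 and 0.640. The ratio thus fell along the cluster while the pileup did not fall steadily. The cluster at CCDC197 (chr14:93986884-93989118) ran from a member before the start to a long peak of 5.68-fold. Near CEP170B on chromosome 14, 2958 bp away from this gene, 3 members with fold enrichments of 5.47, 4.98 and 3.25 followed a long peak. Of the 12 clusters of 4, the 6 with the highest summed pileup were looked at. Besides those above, they lay at 28281912 of chromosome 19, where 3 of the 4 peaks were long, at VSTM2B-DT and at LIPE-AS1.

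The highest fold enrichment of a member was 6.98, at chr16:88547755-88548091, 10724 bp from ZFPM1, a cofactor of GATA factors. It came with a background of 1.51 and an FDR of 9.996e-08. A fold enrichment of 6.67 was found for 3 members, each at 13 fragments over a background of 1.05. They lay inside MAGEA4, a cancer-testis antigen gene on chromosome X, at LOC105379516 on chromosome 22, and on chromosome 9 with no gene within 15 kb. RPS6KA2, a ribosomal S6 kinase gene, held a member at 6.59-fold. NEAT1, the long noncoding RNA on which paraspeckles are built and which binds splicing-related proteins, held one at 6.48-fold with 14 fragments. It stood in a cluster of 3 near the start of NEAT1, and a second cluster of 2 lay further along the gene at fold enrichments of 3.29 and 3.17. LINC02076, NSMF, H2AC6 and an intergenic site on chromosome 6 followed, at 5.85- to 6.08-fold. The chromosome 6 site shared its value with a member in UPK3BL2, a uroplakin-like gene on chromosome 7, so the last of these places was tied. Since the fold enrichment took part in the calling, these are the upper tail of the list and not a finding about members.

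Several of the tallest members lay at or near tRNA genes. After the cluster on chromosome 7, the next highest pileups of members lay in a tRNA gene array on chromosome 1. At TRL-CAG1-5, a leucine tRNA gene, neighbouring members had pileups of 39.9 and 49.7 over backgrounds of 14.0 and 13.0, with fold enrichments of 2.73 and 3.61. At TRG-GCC1-2 and near TRE-CTC1-2, glycine and glutamate tRNA genes, members had pileups of 42.8 and 43.8 at only 2.09- and 2.06-fold, with a background of 20.7 at the latter. Tall peaks of this kind therefore stood on a tall background. A background of 10 or more was found under 12 members, which lay at these tRNA genes, in the chromosome 7 cluster, at chr4:49511766-49513150 and in KATNAL2 on chromosome 18. Other peaks were not compared for small RNA genes, so their counts are given without a reading. In the span of a cluster were 2 of 443 tRNA genes, 4 of 1911 microRNA genes, 2 of 1196 small nucleolar RNA genes, 1 of 154 small nuclear RNA genes and none of 49 ribosomal RNA genes. The small nucleolar ones encode U3, which guides processing of ribosomal RNA. They were SNORD3A, with a member at 4.78-fold (FDR 0.000408), and SNORD3B-2, with a member at 3.78-fold (FDR 0.0936). Each of these clusters also held a long peak, at 4.39-fold (FDR 0.00457) for SNORD3A and 3.41-fold (FDR 0.00744) for SNORD3B-2.

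A clustered short peak lay in or within 1000 bp of 510 of the 19974 protein-coding genes, or 2.55%, and any short peak in or near 6206 genes, or 31.1%. Most of the 510 genes had 1 cluster (454), 45 had 2, and 11 had 3 or more.

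Replication-dependent histone genes, which lack polyadenylation signals and are transcribed in S phase, had a member at 10 of 69 (14.5%, Wilson 95% CI 8.07 to 24.7), beside 2.55% of all protein-coding genes. Any short peak was found at 18 of them (26.1%). The 10 genes rested on 7 members in 6 clusters, because neighbouring histone genes shared peaks. H2AC20, H2AC21 and H2BC21 shared a member of 4.30-fold, whose cluster also held a long peak of 10.5-fold. At H2AC6 the midpoint of a member of 6.03-fold lay 593 bp past the far end of the gene, and at H2BC8 that of a member of 4.41-fold 631 bp past it. Weaker members lay at H2AC18 (2.97-fold, FDR 0.640) and in H2BC13, near H2AC13 (2.44-fold, FDR 1). Of 11 assignments of members to histone genes 4 lay past the far end, 4 inside and 3 before the start, and of 9 of other short peaks 5 lay past the far end.

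Immediate early genes, which are induced within minutes of a stimulus, had a member at 8 of 36 (22.2%, 11.7 to 38.1), and any short peak at 18 (50.0%). The 12 members were in 9 clusters, and 4 of the 8 genes were on chromosome 19. At IER2 members of 4.23- and 4.97-fold lay 2911 and 3506 bp from the start of the 4501 bp gene, followed by a long peak that begins past its far end. At FOSB, a component of AP-1, a member of 3.70-fold stood on the far end behind long peaks of 3.29- and 5.51-fold. At ZFP36, which encodes an mRNA decay factor, a member of 3.90-fold with a pileup of 22.4 lay 883 bp past the far end. EGR1 held members of 3.52- and 3.58-fold in the gene and another of 3.58-fold 512 bp past it, none with an FDR under 0.05. The members in the gene stood beside a long peak of 10.2-fold with an FDR of 2.10e-16. FOSL1, NR4A2, JUND and CCN1 were the others, and the member at CCN1, of 2.73-fold, stood beside a long peak of 10.5-fold.

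Over all protein-coding genes with a known strand, 5.86% of assignments of members to genes fell past the far end (4.45 to 7.68) and 3.66% before the start (2.58 to 5.18). For other short peaks the shares were 3.47% (3.11 to 3.88) and 3.45% (3.08 to 3.86). A peak at 2 genes counts for each.

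The other lists were closer to the background share or below it. Genes named as zinc finger genes had a member at 8 of 552 (1.45%, 0.736 to 2.83) and any short peak at 23.7%. This list goes by gene symbol, and ZFP36 and ZNF185, both among the 8, encode no C2H2 zinc finger. Integrins and collagens had a member at 3 of 70 (4.29%), which were ITGAX, a leukocyte integrin at 4.77-fold, ITGA11 and COL20A1. None of 42 HNRNP, PCBP and SRSF genes had a member (upper bound 8.38%), although 10 had a short peak. None of 30 chloride channel genes had one (upper bound 11.4%), although 16 had a short peak.

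Among the 5 genes with the most clusters, ties taken by number of members, were RYR1, GIPR, POU2F2 and RAPGEF3. The remaining gene, on chromosome 19 with 5 clusters, 8 members and a median background of 2.80, is not named here. RYR1, the calcium release channel of skeletal muscle, had 6 clusters with 9 members over 153.9 kb, at fold enrichments up to 4.41. In GIPR all of the 4 clusters were pairs of members, 8 members in all, within or just beyond 15.5 kb, and the highest fold enrichment was 4.71. POU2F2, a lymphoid octamer-binding factor, had 4 clusters with 7 members, one of them around a start. RAPGEF3, an exchange factor for Rap proteins that responds to cyclic AMP, had 3 clusters with 7 members and was 1 of 7 genes with 3 clusters. Of these 4, all but RAPGEF3 are on chromosome 19 between 38 and 46 Mb, and RAPGEF3 is in the dense window at 47 to 48 Mb of chromosome 12. The median background of members in these 4 genes was 2.66 or more, and their median fold enrichment was 2.92 to 3.49. Of the 11 genes with 3 or more clusters 10 had a median background of 2.5 or more. The exception was CACNA1A, a neuronal calcium channel gene with 3 clusters, named after its values were seen, with a median background of 1.07 and a median fold enrichment of 3.82. Whether the number of clusters in a gene goes with its background was not tested.

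Only 5 of the genes that the study names were looked up. These, YAP1, MMP2, XRCC5, HNRNPK and CLCN3, had no clustered short peak. GAPDH, a reference gene there, held the cluster of 5 described above. CLCN3, the chloride/proton exchanger gene, had its nearest short peak 95.2 kb away and its nearest member 19374 kb away. The study reports HNRNPK enrichment around the start of CLCN3. Peaks of 500 bp or more were not looked up at these genes, so the short peaks do not address that report. HNRNPK itself and XRCC5, the Ku80 gene of DNA end joining, had no short peak within 1000 bp. MMP2, a matrix metalloproteinase gene, had 1 short peak and YAP1, a Hippo pathway coactivator gene, had 2, none of them clustered.

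Promoter windows gave the sequence of part of the members. Of 1588 members on chromosomes with windows 54 (3.40%, 2.62 to 4.41) overlapped at least 1 of 34961 windows of 300 bases, beside 2.11% of other short peaks (1.91 to 2.33). The 65 windows they overlapped belonged to 56 genes, and some are alternative starts of 1 gene, as in CD63. Their GC content had a median of 64.7%, against 63.7% in 452 windows overlapped by other short peaks alone and 58.7% in all windows. CCCTCCC, searched on both strands, was present in 35 of the 65 (53.8%, 41.9 to 65.4), in 41.2% of windows with another short peak (36.7 to 45.7) and in 26.6% of all windows. Counted by cluster, 27 of 49 clusters had it in at least 1 overlapped window.

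The heptamer goes with GC content, so shares were also taken within GC classes. At a GC content of 65% or more it was present in 23 of 32 windows with a member (71.9%, 54.6 to 84.4), in 56.6% of windows with another short peak (49.6 to 63.3) and in 42.6% of all windows. The intervals of both kinds of short peak overlapped, so only the share of all windows lay outside that of members. At 55 to 65% GC the shares were 42.9% of 21 windows, 37.1% and 30.3%, and the interval of the first (24.5 to 63.5) held the others. Under 55% GC 3 of 12 windows with a member had it. The heptamer was set for its C-rich letters and is not a motif of the study, which names the hexamers GCGAGG and CTAATG. Of the 65 windows with a member 13 held GCGAGG (12.1 to 31.3%) and 9.23% held CTAATG (4.30 to 18.7). In windows with another short peak the shares were 26.5% (22.7 to 30.8) and 4.20% (2.71 to 6.47). Over all windows they were 22.1% and 6.48%. A match is a description of letters in a window, not a binding site.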

How the data were processed

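HNRNPK ChIP-seq of untreated H1299 cells was analysed from 1 peak list, called by the authors on 1 IP library against 1 input library. The peak names write the cell line as A1299, which was read as H1299 because the series holds no other IP. The submitters' processing notes name Trimmomatic 0.36, STAR 2.5.3a, MACS2, bedtools and HOMER and the build GRCh38, without their order or settings. Among the deposited values, fold enrichment is the ratio by which the IP exceeds its local background. P-value and FDR (q-value), also deposited, are linear numbers. The deposited pileup is a signal, the IP coverage in fragments scaled to a common depth. All pileups were whole multiples of 0.973 to within 0.0055 of a step, which gave fragments. Reads, library depth, genome sequence, exons and introns were not used here.

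The local background was computed as pileup plus 1, divided by fold enrichment, minus 1. Clusters joined peaks at gaps of at most 1000 bp. Midpoints were placed on 59098 RefSeq gene spans of GRCh38.p14. Strand and starts came from 34961 promoter windows of 27195 genes, which cover 15812 of 19974 protein-coding genes and not chromosome 8. Genes named were those of the 10 clusters with most peaks and of the 10 members with the highest fold enrichment and with the highest pileup. Also named were 4 of the 5 coding genes with most clusters, and CLCN3, HNRNPK, XRCC5, MMP2 and YAP1. Up to 4 genes per gene list were named, without those of 1 list. The other histone and immediate early genes, SNORD3A, SNORD3B-2, CACNA1A, UPK3BL2, the promoters printed and the classes of background, height and GC content were chosen after their values were seen. Members and lists were chosen with earlier results of these data known. Alternatives varied the gap, the length limit, the FDR and fold enrichment thresholds, the genes and distances used for gene ends, the chromosome ends and, after the data were seen, chromosome 19. Shares carry Wilson 95% intervals and medians binomial order-statistic intervals. The cluster search and placement were tested on simulated data. Computations used Python 3.11.15, numpy 2.4.6, pandas 2.3.3, scipy 1.17.1 and matplotlib 3.10.9.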

Additional observations from a re-analysis of the deposited data

How the results depend on the processing

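No paired analysis was possible because there was 1 IP and 1 input library. Gap limits of 500 and 2000 bp changed the members from 1634 to 857 and 2845, the clusters from 878 to 474 and 1445, the share with 3 or more peaks from 9.45% to 5.70% and 15.3%, and the coding genes from 510 to 290 and 811. By construction, a wider limit admits more. A length limit of 300 bp left 940 members. With peaks of FDR under 0.05 only, neighbours included, 89 members in 56 clusters were left, and 24.7% lay at gene ends. With a fold enrichment of at least 3 the numbers were 1069 members, 577 clusters and 6.76% with 3 or more peaks. The share at gene ends was 6.24% with protein-coding genes only, 19.1% and 38.4% within 1000 and 3000 bp to either side, and 14.3% by any overlap. Inside protein-coding genes lay 53.8%. An FDR under 0.01 was given to 7.47%. Without chromosome 19, chosen after seeing the data, the median fold enrichment was 3.58 and the median background 1.37, outside the main intervals. The remaining 16 recomputed values lay within the main interval or, for counts, within 1.5 times. The cause of the other changes was not tested. The quartiles of members were 7 and 11 fragments, which limits what a single peak shows. With 1 IP the clusters cannot be told from those another pull-down would give, and whether a pair is 1 broad site was not tested. Copy number, mappability and expression of genes were not analysed here. The background was derived from pileup and fold enrichment, so the 3 are not independent. Gene lists are small, and neighbouring genes share members.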

Other observations

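Of 231 short peaks on contigs and chromosome Y, 41 had a neighbour within 1000 bp (17.7%, Wilson 95% CI 13.4 to 23.2). On chromosome 21 below 9 Mb it was 14 of 43 (32.6%, 20.5 to 47.5). On chromosomes 1 to 22 and X the share was 7.89%.

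Of 18177 long noncoding RNA genes 101 were overlapped by a cluster, in 103 of the 878 clusters. Other peaks were not compared. Among 4 microRNA genes in cluster spans were MIR612, inside NEAT1, and MIR6511A2 on chromosome 16, which lay under a peak.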
